A study of Mus musculus with 18 samples.

Results

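The zona pellucida genes Zp1, Zp2 and Zp3 and the transcription factor gene Figla were described across single mouse oocytes at 2 stages of meiosis. The 4 genes were chosen by symbol from the 47069 genes of each deposited table, and all 4 passed the filter on low counts. Oocytes of the germinal vesicle (GV) stage are immature and keep their nucleus. Those of metaphase II (MII) have matured into fertilisable eggs. Every group came from C57BL/6JAusb females. Young controls were 4 weeks old, aged controls were 12 months old, and aged NMN mice were 12 months old and had nicotinamide mononucleotide (NMN), a precursor of NAD, in their drinking water at 2 g/L for 4 weeks. Both control groups drank water without NMN, and no group carried an altered allele. Each library held the RNA of 1 oocyte, taken from the supernatant after the nucleus was spun down.

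The zona pellucida is the glycoprotein coat that the growing oocyte secretes around itself. Sperm bind to it, and after fertilisation it is modified so that further sperm are kept out. In the mouse it is built from the proteins ZP1, ZP2 and ZP3. ZP2 and ZP3 form the filaments and ZP1 crosslinks them. FIGLA is a basic helix-loop-helix factor of the germ line that binds E-box sequences together with E proteins, and it is required for the expression of the zona genes.

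Of 18 deposited libraries, those of GV young control 1 and 2-1 held identical values in 47069 genes and were counted as 1 oocyte. GV aged control 2-2 held 5008 counts and was left out. None of the 4 genes had a count in it, which at that depth allows up to 599 CPM, the usual measure of counts relative to the total of their library. This left 2 GV young control, 2 GV aged control and 3 GV NMN oocytes, and 3 MII oocytes per condition, 16 in all. They held 2756183 to 5586857 counts (median 3947700). The floor, the level that 3 counts would give, lay between 0.537 and 1.09 CPM. Because the labels give no animal for an oocyte, a group counts as a single sample. Groups were therefore not tested against each other, and the values describe these oocytes. Scaled CPM also carry edgeR's TMM factors. They are shares of a library, so the amount of RNA per oocyte was not measured. Oocyte markers were found in each of the 16 oocytes, with Dppa3 between 2036 and 37599 and H1foo between 385 and 31937 scaled CPM. Of 11 such markers, MII NMN 1 and 2 had a count in only 6 and 8, and the other oocytes in 10 or 11. MII NMN 1, 2 and 2-1 held 6444, 5679 and 7725 detected genes, fewer than the 8539 to 13816 of the other oocytes, and mitochondrially encoded genes took 43.0, 33.2 and 6.18% of their counts.

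The genes lie on different chromosomes of the mouse genome GRCm38 in the GENCODE vM21 annotation. Zp1 (ENSMUSG00000024734) spans chromosome 19, 10914287 to 10920632, on the minus strand. Zp2 (ENSMUSG00000030911) spans chromosome 7, 120126772 to 120145291, on the minus strand. Zp3 (ENSMUSG00000004948) spans chromosome 5, 135980099 to 135988624, on the plus strand. Figla (ENSMUSG00000030001) spans chromosome 6, 86016171 to 86020996, on the plus strand. Promoters of 2 of the 4 genes were matched in a RefSeq table (GRCm38.p6) that holds 250 bases before and 50 bases after each start. They are shown because FIGLA binds E-boxes and because both genes were lower in MII than in GV oocytes of each condition. The 250 bases before the start of Zp3 (chr5:135979855-135980104, plus strand) and of Figla (chr6:86016941-86017190, plus strand, a start inside the GENCODE gene) read as follows, 5′ to 3′, with E-boxes in capitals.
Zp3: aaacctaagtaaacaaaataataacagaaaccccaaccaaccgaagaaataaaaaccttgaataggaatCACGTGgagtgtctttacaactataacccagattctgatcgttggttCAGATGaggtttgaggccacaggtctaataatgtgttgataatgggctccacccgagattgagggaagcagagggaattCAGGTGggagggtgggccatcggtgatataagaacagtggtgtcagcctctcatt
Figla: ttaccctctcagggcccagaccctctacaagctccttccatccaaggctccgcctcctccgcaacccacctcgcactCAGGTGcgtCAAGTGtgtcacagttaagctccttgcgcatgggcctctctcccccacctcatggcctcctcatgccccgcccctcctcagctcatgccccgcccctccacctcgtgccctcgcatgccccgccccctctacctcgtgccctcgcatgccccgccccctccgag
The E-box was searched as CANNTG, which reads the same pattern on both strands, so each match counts once. In the whole window of 300 bases both promoters held 4 matches. In the Zp3 promoter 3 of them stand in the printed bases, starting 181, 134 and 55 bases before the start, and in the Figla promoter 2 do, starting 173 and 164 bases before it. At least 1 match was found in 72.3% of 32851 promoters of that length and at least 4 in 6.49%. TATAAA, searched on both strands, was in neither promoter and in 13.6% of all. A match is a run of letters and not a measured binding site.

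Zp3 was the most abundant zona transcript in 14 of the 16 oocytes on the per-length scale, the deposited TPM. It encodes the protein that pairs with ZP2 in the filaments. In GV oocytes Zp3 was at 520 and 643 TPM in young controls, 4892 and 1245 TPM in aged controls (1 and 2-1), and 6591, 6957 and 654 TPM in NMN (1, 2 and 2-1). The 3 highest values, in aged control 1 and NMN 1 and 2, placed Zp3 at ranks 19, 17 and 14 of all genes in their oocytes, and the other GV oocytes had it at ranks 163 to 370. In MII oocytes Zp3 was at 221, 318 and 254 TPM in young controls, at 439, 496 and 101 TPM in aged controls, and at 1.64, 0 and 50.9 TPM in NMN. The exceptions to its first place were MII NMN 1 and 2, where Zp2 was higher on 30 and 14 zona counts in all.

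Zp2 was at 253 and 234 TPM in GV young controls, at 111 and 559 TPM in GV aged controls, and at 96.9, 126 and 196 TPM in GV NMN oocytes. In MII oocytes it was at 7.29, 10.7 and 74.9 TPM in young controls, 35.5, 5.03 and 3.84 TPM in aged controls and 2.11, 0.980 and 26.2 TPM in NMN. Each MII value lay below each GV value. Zp1, the crosslinker, was at 45.7 and 26.5 TPM in GV young controls, 118 and 190 TPM in GV aged controls and 162, 125 and 59.5 TPM in GV NMN oocytes. Zp1 exceeded Zp2 per length in 5 of the 16 oocytes, GV aged control 1, GV NMN 1, MII young control 1 and 2 and MII aged control 2. So the order below Zp3 was not fixed between oocytes. Figla was at 196 and 20.6 TPM in GV young controls, 144 and 188 TPM in GV aged controls and 135, 112 and 91.2 TPM in GV NMN oocytes, levels near those of Zp1. In MII oocytes Figla reached at most 13.7 TPM. In the plot of scaled CPM by oocyte, the MII points of Zp2, Zp3 and Figla lie apart from the GV points, while those of Zp1 overlap them.

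**Figure D1:**
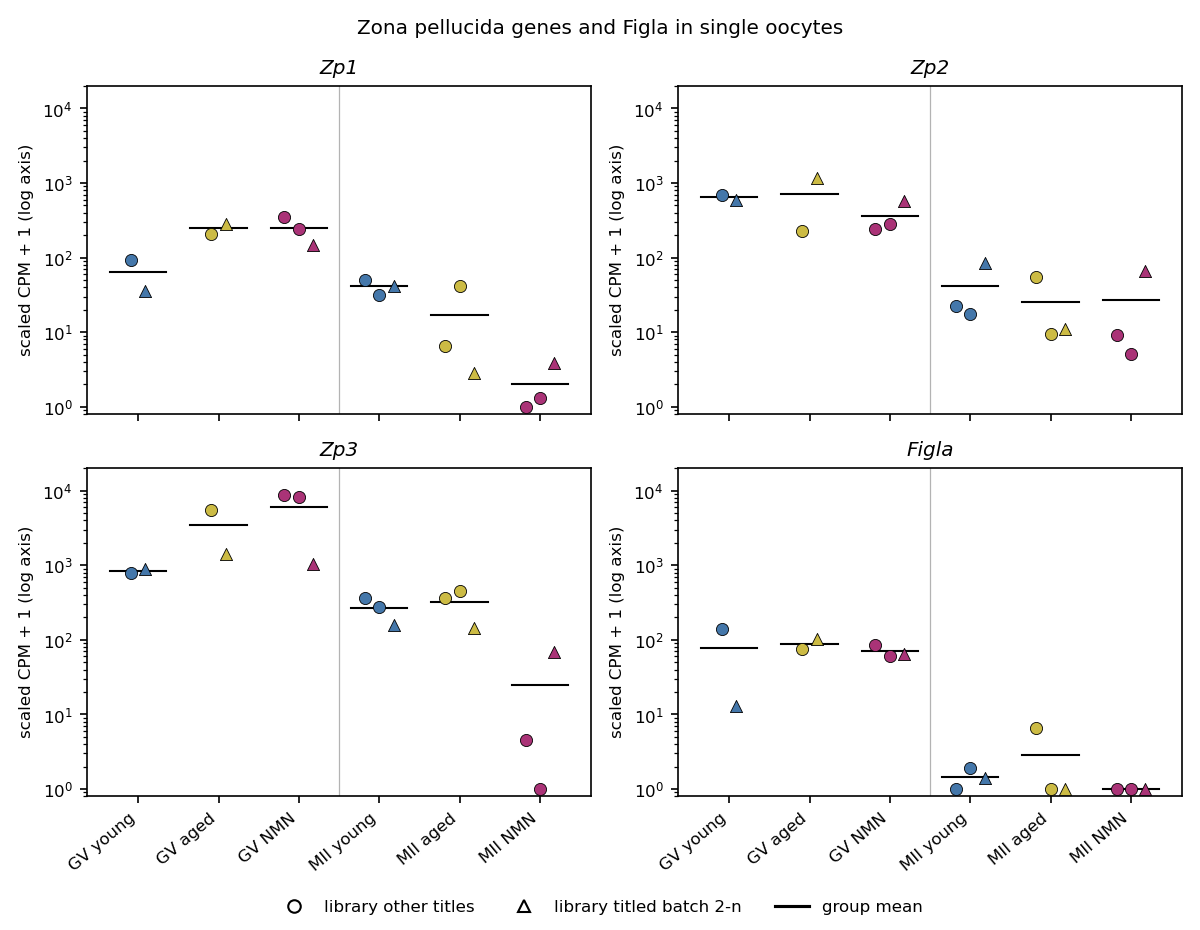
Scaled CPM plus 1 (log axis) of Zp1, Zp2, Zp3 and Figla in each of the 16 oocytes, by group, with circles for libraries of other titles, triangles for libraries titled batch 2-n and a line at the group mean. Figla lies at 12.0 to 140 scaled CPM in GV and at 0 to 5.63 in MII oocytes.

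Maturation was described by MII against GV oocytes within each condition. A difference was counted when the group means differed at least 2-fold, with 1 CPM added, and no oocyte of one group overlapped the other. By that rule 3 of 4 genes were lower in MII young controls, where 15.4% of 12161 genes were lower by the same rule. In aged controls 4 of 4 genes were lower, against 25.9% of all genes, and in NMN 4 of 4, against 26.8%. The median log2 ratio of the 4 genes was -2.80, -4.34 and -6.53 in young control, aged control and NMN oocytes, and that of all genes was 0.35, -0.29 and -0.82. The 3 comparisons share no oocytes, but the spread between animals behind them is unknown.

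The zona transcripts together, summed over Zp1, Zp2 and Zp3, made up 1570 and 1515 scaled CPM in GV young controls and 434, 321 and 282 in MII young controls. The MII mean of 345 ± 78.9 (SD, n = 3) was 4.46-fold lower than the GV mean of 1542 ± 38.9 (SD, n = 2). In aged controls the sum was 5934 and 2889 in GV and 423, 498 and 155 in MII oocytes, a 12.3-fold lower mean. Without GV aged control 1 the log2 ratio of that sum was -3.00 in place of -3.62. In NMN oocytes the sum was 9406, 8794 and 1746 in GV and 11.8, 4.34 and 135 in MII, a 132-fold lower mean. That ratio, -7.02 on the log2 scale, was -9.51 without MII NMN 2-1, the only one of those MII oocytes above 100 scaled CPM. It was -5.57 without MII NMN 1 and 2, the oocytes with the fewest detected genes, an alternative chosen after the data were seen. The share of mitochondrial counts and the number of detected genes moved with the low values, and their part in the result was not tested.

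Figla was the gene with the fewest MII counts. It was at 140 and 12.0 scaled CPM in GV young controls and at 0, 0.934 and 0.413 in MII young controls, where 8 counts were found in all, or 0.527 CPM with an exact Poisson 95% interval of 0.227 to 1.04. The mean was 169-fold lower, a value that rests on GV young control 1. Without it the log2 ratio was -3.16 in place of -5.73, and without GV young control 2-2 it was -6.60. In aged controls Figla was at 75.2 and 101 scaled CPM in GV and at 5.63, 0 and 0 in MII oocytes, a 46.9-fold lower mean. The 32 MII counts all came from MII aged control 1, and without it the log2 ratio was -6.45 in place of -4.95. In NMN oocytes Figla was at 83.4, 60.3 and 64.6 scaled CPM in GV, and none of the 3 MII oocytes had a count. Against 3 counts over that group, or 0.335 scaled CPM, the GV mean was at least 207-fold higher. The intervals, floors and bounds cover counting error only, since the reads carry no molecular identifiers.

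Zp2 was lower in MII oocytes of every condition. In young controls it was at 697 and 589 scaled CPM in GV and at 21.8, 16.6 and 85.0 in MII oocytes, a 15.6-fold lower mean. Its log2 ratio of -3.93 was -4.99 without MII young control 2-1, the highest of the MII values. In aged controls Zp2 was at 229 and 1177 in GV and at 53.7, 8.50 and 10.2 in MII oocytes, a 29.2-fold lower mean. Leaving out single oocytes moved that log2 ratio of -4.81 to -3.20 (GV aged control 2-1), -5.55 (GV aged control 1) or -6.09 (MII aged control 1). In NMN oocytes it was at 238, 278 and 572 in GV and at 8.29, 4.03 and 64.6 in MII, a 14.1-fold lower mean, and -3.77 on the log2 scale became -5.67 without MII NMN 2-1.

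Zp3 was also lower in MII oocytes of every condition. In young controls it was at 782 and 891 scaled CPM in GV and 363, 274 and 156 in MII oocytes, a 3.16-fold lower mean. In aged controls it was at 5496 and 1427 in GV and 364, 449 and 143 in MII, a 10.9-fold lower mean. The log2 ratio of -3.44 was -2.16 without GV aged control 1 and -4.11 without GV aged control 2-1. Without the latter, Zp3 was lower by more than Zp2 (-3.20), the reverse of the order with all oocytes. In NMN oocytes Zp3 was at 8818, 8274 and 1027 in GV and at 3.55, 0 and 67.5 in MII, a 255-fold lower mean. The oocyte without a count allows up to 0.931 scaled CPM, and without MII NMN 2-1 the log2 ratio was -11.09 in place of -7.94.

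Zp1 overlapped between the stages in young controls and stood apart in the aged and NMN conditions. In young controls it was at 91.4 and 34.4 scaled CPM in GV and at 48.9, 30.7 and 40.5 in MII oocytes. The log2 ratio of -0.64 became 0.22 without GV young control 1. In aged controls Zp1 was at 209 and 285 in GV and 5.46, 40.3 and 1.82 in MII oocytes, a 15.6-fold lower mean without overlap. Its log2 ratio of -3.88 was -5.74 without MII aged control 2 and -3.38 without MII aged control 2-1. In NMN oocytes it was at 350, 241 and 147 in GV and 0, 0.310 and 2.81 in MII, where 10 counts were found in all. The mean was 237-fold lower, and -6.92 on the log2 scale became -7.74 without MII NMN 2-1. The difference in maturation between conditions was not tested.

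**Figure D2:**
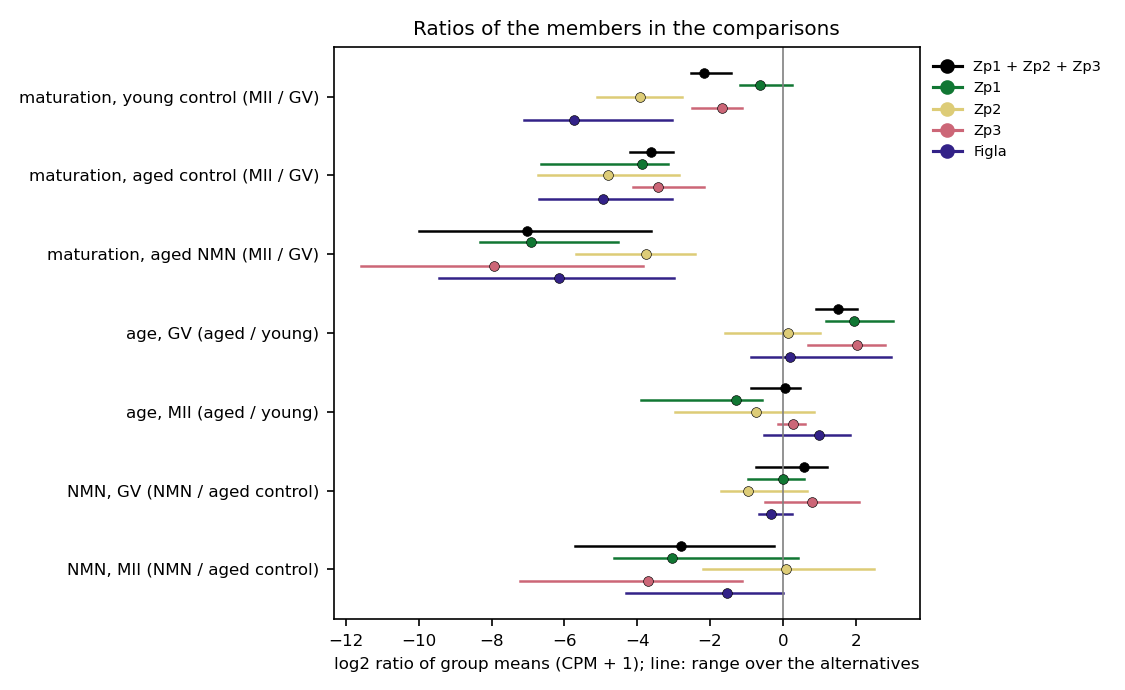
Log2 ratio of group means (1 CPM added) for the zona sum and for each gene in 7 comparisons, with points for the values reported and lines for the range over the alternatives. Lines of Zp2, Zp3, Figla and the zona sum stay below 0 in the 3 maturation comparisons, while that of Zp1 in young controls runs from -1.17 to 0.24.

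Age was described in GV oocytes by 2 aged against 2 young controls, which also entered the comparisons of maturation. Zp1 and Zp3 were higher in aged controls by the 2-fold rule without overlap, 2 of 4 genes, against 19.7% of all genes higher by the same rule. Zp1 was at 209 and 285 scaled CPM in aged and 91.4 and 34.4 in young controls, means of 247 ± 53.4 and 62.9 ± 40.3 (SD, n = 2 each), or 3.92-fold higher. Zp3 was at 5496 and 1427 against 782 and 891, or 4.14-fold higher. The Zp3 value rests on GV aged control 1, since its log2 ratio of 2.05 was 0.77 without that oocyte, short of 2-fold, and 2.73 without GV aged control 2-1. The log2 ratio of Zp1, 1.96, ran from 1.43 to 2.81 when single oocytes were left out, with the highest value without GV young control 1. The zona sum was 2.86-fold higher in aged controls, and its log2 ratio of 1.52 was 0.90 without GV aged control 1. The number of detected genes moved the same way, 13816 and 11736 in the aged against 10079 and 8825 in the young controls, and its part in the result was not tested.

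Zp2 and Figla overlapped between the ages in GV oocytes, with log2 ratios of 0.13 and 0.21. Single oocytes set both signs, since Zp2 was at -1.47 without GV aged control 2-1 and 0.87 without GV aged control 1, and Figla at 2.78 without GV young control 1 and -0.66 without GV young control 2-2. For Zp2 the aged values of 229 and 1177 scaled CPM stood on either side of the young values of 697 and 589. For Figla the aged values of 75.2 and 101 stood between the young values of 12.0 and 140. The median log2 ratio of the 4 genes was 1.08, and that of all genes was 0.29. In MII oocytes no gene of the 4 met the rule between the ages. Zp3 was at 364, 449 and 143 scaled CPM in aged against 363, 274 and 156 in young controls, 319 ± 158 against 264 ± 104 (SD, n = 3 each). The zona sum was 359 ± 180 against 345 ± 78.9. The log2 ratios of Zp1, Zp2, Zp3 and Figla were -1.28, -0.75, 0.27 and 0.99, each with overlap. Figla counts there were 32 in aged and 8 in young oocytes, close to the floor in most.

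NMN was described by aged NMN against aged control oocytes, so these comparisons share the aged controls with those of age. In GV oocytes no gene of the 4 met the rule. Zp3 was at 8818, 8274 and 1027 scaled CPM in NMN and 5496 and 1427 in aged controls, means of 6039.5 ± 4350 and 3462 ± 2877 (SD). Its log2 ratio of 0.80 was smaller than the spread between oocytes, whose combined SD was 2.24 on the log2 scale. Zp1, Zp2 and Figla had log2 ratios of -0.0044, -0.95 and -0.34 with overlap. In both groups the libraries titled batch 2-n held less Zp3 than the others.

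In MII oocytes Zp3 was lower after NMN, 1 of 4 genes, against 11.3% of all genes lower by the same rule. It was at 3.55, 0 and 67.5 scaled CPM in NMN and 364, 449 and 143 in aged controls, means of 23.7 ± 38.0 and 319 ± 158 (SD, n = 3 each), or 13.5-fold lower. Counts pooled over the 3 NMN oocytes gave 20.1 CPM with an exact Poisson 95% interval of 17.6 to 23.0, and those of aged controls 400.2 CPM with 388 to 412. The log2 ratio of -3.70 was -6.85 without MII NMN 2-1. Without MII NMN 1 and 2 it was -2.29, a value that rests on MII NMN 2-1 alone. Its sign could not change, since the groups did not overlap. Zp1 was at 0, 0.310 and 2.81 scaled CPM in NMN and 5.46, 40.3 and 1.82 in aged controls, so 1 oocyte overlapped. Zp2 overlapped fully, at 25.7 ± 33.8 against 24.1 ± 25.6 (SD, n = 3 each), and its log2 ratio of 0.09 ran from -1.81 (without MII NMN 2-1) to 1.37 (without MII aged control 1) when single oocytes were left out, and from -2.20 to 2.51 over all alternatives. Figla was without a count in the 3 NMN oocytes and in 2 of the 3 aged controls.

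The zona sum in MII oocytes was 11.8, 4.34 and 135 scaled CPM in NMN and 423, 498 and 155 in aged controls, 7.12-fold lower. Its log2 ratio of -2.81 was -5.31 without MII NMN 2-1 and -1.47 without MII NMN 1 and 2. The MII NMN group was also the one with the fewest detected genes and, in its oocytes 1 and 2, the highest mitochondrial share. The part of these in the Zp3 and zona values was not tested.

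The library titles split the oocytes within groups, and in GV oocytes of aged mice Zp2 and Zp3 followed that split. Comparisons of the libraries titled batch 2-n with those of other titles were chosen after the values were seen. In GV oocytes of aged mice, control and NMN together, Zp3 was at 5496, 8818 and 8274 scaled CPM in the 3 libraries of other titles and at 1427 and 1027 in the 2 titled batch 2-n. The means were 7529 and 1227, or 6.14-fold higher in other titles, where 21.7% of genes were higher by the same rule. Zp2 went the other way, at 229, 238 and 278 against 1177 and 572, or 3.52-fold lower in other titles, where 11.0% of genes were lower. Zp1 and Figla overlapped between the sets. The 3 oocytes of other titles also held more detected genes, 13816, 13253 and 13550, than the other 4 GV oocytes with 8825 to 11736, and the part of this was not tested.

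The same contrast in MII controls, with 4 libraries of other titles and 2 titled batch 2-n, gave Zp3 means of 362 and 150 scaled CPM, 2.42-fold higher in other titles, where 4.44% of genes were higher. Zp1, Zp2 and Figla overlapped there. What the title numbers stand for is not stated in the labels, so it is not known which step the sets differ in. In the GV aged control group the sets hold 1 oocyte each. In GV young controls, libraries 1 and 2-1 were the identical pair, so the merged oocyte carries both titles. It was placed with other titles, but 14.5% of its detected genes had a fractional count, inside the 11.9 to 14.6% of libraries titled batch 2-n and below the 19.5 to 29.0% of the rest. Its ratio of Zp3 to Zp2 in TPM, 2.05, was close to the 2.75 of GV young control 2-2. The comparisons of the 4 genes within each set therefore rest on 1 or 2 oocytes a group. For age in GV oocytes, the values of other titles use that merged oocyte as the only young control and may thus compare across sets. Within libraries titled batch 2-n the log2 ratios of Zp1, Zp2, Zp3 and Figla were 3.02, 1.01, 0.69 and 2.98, and with other titles 1.19, -1.60, 2.81 and -0.89. With the merged oocyte counted as titled batch 2-n they were 2.16, 0.87, 0.77 and 0.40 in that set, and no young control remained in the other. For NMN in MII oocytes, Zp3 was at -1.13 and -7.22, and the zona sum was at -0.26 and -5.70. For NMN in GV oocytes the zona sum was at -0.74 and 0.60, and for age in MII oocytes at -0.74 and 0.27.

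The zona sum was lower in MII within both sets, with the merged oocyte as the only GV young control of other titles. For libraries titled batch 2-n its log2 ratios in young control, aged control and NMN oocytes were -2.41, -4.09 and -3.61, and for other titles -2.04, -3.69 and -9.99. With the merged oocyte and MII NMN 2 counted as titled batch 2-n, the values of that set were -2.43, -4.21 and -4.63, and other titles gave none for young controls. Zp2 and Figla were lower in MII in each of these comparisons too. The zona sum, Zp2 and Figla did not overlap between the stages in any condition. Their signs within a set were thus fixed beforehand, and only the sizes could differ.

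**Figure D3:**
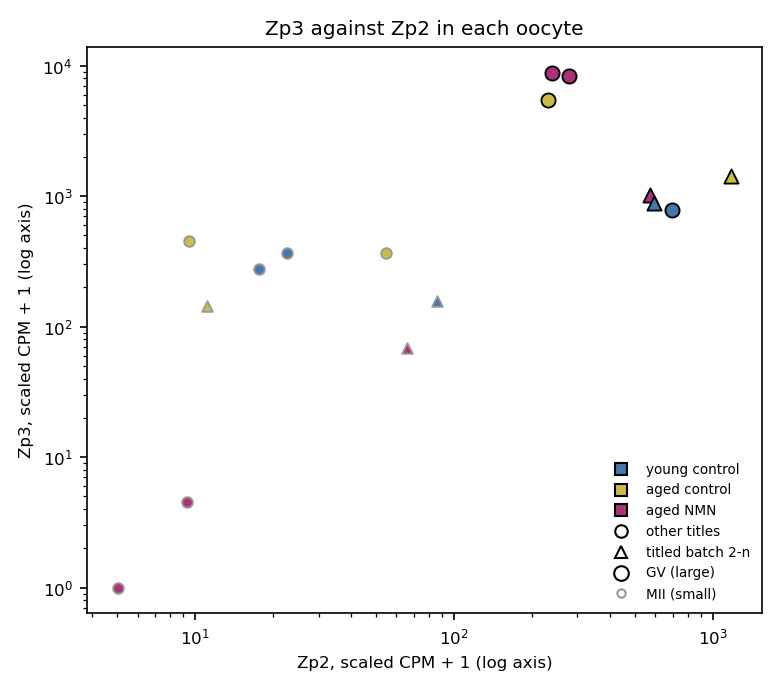
Zp3 against Zp2 in each of the 16 oocytes, both as scaled CPM plus 1 on log axes, with large points for GV and small points for MII, colours for the condition and shapes for the library title. GV aged control 1 and GV NMN 1 and 2 form a group at 229 to 278 of Zp2 and 5496 to 8818 of Zp3, apart from the other 4 GV oocytes at 572 to 1177 of Zp2 and 782 to 1427 of Zp3.

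The proportion of the zona transcripts showed the same split on the per-length scale. The ratio of Zp3 to Zp2 in TPM was 43.9, 68.0 and 55.0 in GV aged control 1 and GV NMN 1 and 2, and between 2.05 and 3.33 in the other 4 GV oocytes. Zp3 made up 95.5 to 96.5% of the zona TPM in those 3 oocytes and 62.4 to 71.9% in the other 4. In MII young controls the ratio was 30.3 and 29.8 in the libraries of other titles and 3.39 in the library titled batch 2-n. In MII aged controls it was 12.4 and 98.5 against 26.3, so there the sets overlapped. Over the 7 GV oocytes, Zp2 and Zp3 had a Spearman rho of -0.68 and Zp1 and Zp3 of 0.86. Over all 16 oocytes the values were 0.74 and 0.91, which include the difference between the stages. These correlations are descriptions, since the oocytes share groups and library sets.

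**Figure D4:**
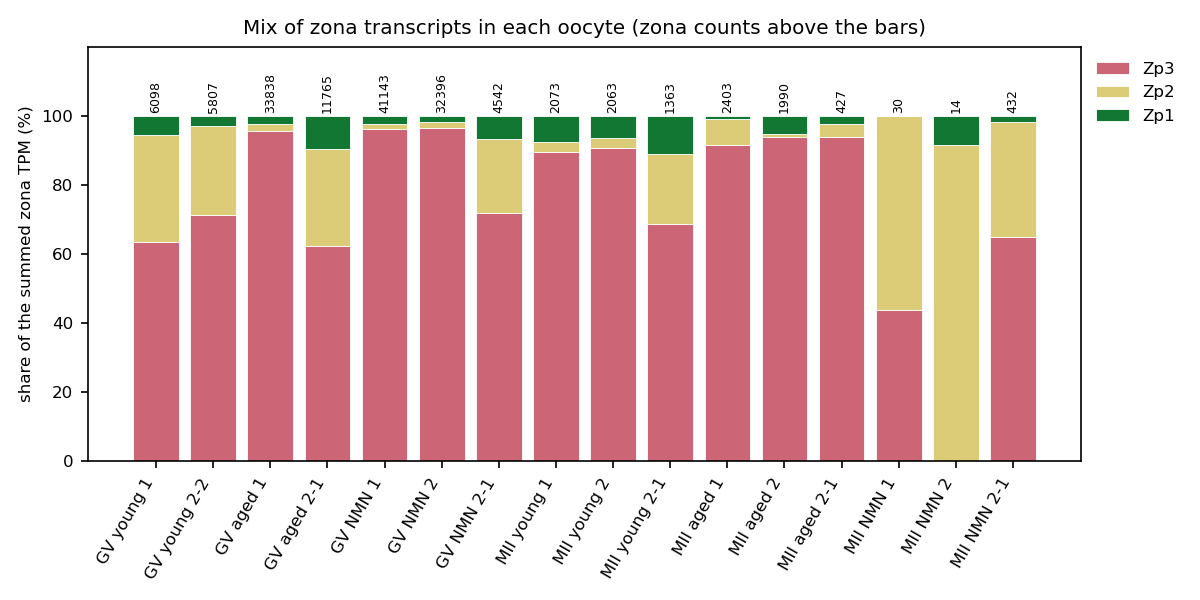
Share of the summed zona TPM (%) held by Zp1, Zp2 and Zp3 in each of the 16 oocytes, with the number of zona counts above each bar. Zp3 takes 95.5 to 96.5% in GV aged control 1 and GV NMN 1 and 2, and the bars of MII NMN 1 and 2 rest on 30 and 14 counts.

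C1qb, a subunit of complement C1q, moved with the same GV oocytes. The sum over 8 immune markers was 237, 101 and 173 scaled CPM in GV aged control 1 and GV NMN 1 and 2, and 8.87 to 21.9 in the other 4 GV oocytes. Nearly all of it in the 3 oocytes was C1qb, at up to 227 scaled CPM. Csf1r, a macrophage receptor, went the other way, at 7.65 in the mean of GV young controls against 2.21 in aged controls and 2.52 in NMN. Ptprc, C1qa, Adgre1 and Cd74, which mark leukocytes, macrophages and antigen-presenting cells, had no count in any of the 16 oocytes. The sum over 12 cumulus and granulosa markers was 1.54 to 70.2 in GV and 0 to 325 in MII oocytes. Amh and Foxl2 were at 0 in all, but others had counts. Gja1 was at 102 in the mean of MII young controls, against 0 in GV young controls, and reached 182 in an MII oocyte. Cyp19a1, Tnfaip6 and Fst reached 55.2, 43.0 and 30.8 in MII oocytes. The sum over 8 theca and stroma markers was 0 to 10.7 in GV and 0 to 23.0 in MII oocytes. Zp1, Zp2, Zp3 and Figla are oocyte genes, and the part of other cells in their values was not tested.

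The tables also held a trace of transcript use for Zp1. The deposited mean transcript length of a gene is an average over its transcripts weighted by their estimated abundance. Zp1 has a long form, Zp1-201, of 1963 bases in 12 exons, and a short form, Zp1-202, of 481 bases in 4 exons. The deposited length of Zp1 was 1963, so all on the long form, in GV NMN 1 and 2 and in 7 of the 8 MII oocytes with a count. It was 1670 and 1255 in the GV young controls, which corresponds to 19.8 and 47.8% of Zp1 transcripts assigned to the short form. It corresponded to 1.70 and 21.8% in GV aged control 1 and 2-1 and to 3.87% in GV NMN 2-1. In GV oocytes of aged mice the share was 0 to 1.70% in libraries of other titles and 3.87 and 21.8% in those titled batch 2-n. The merged young oocyte, placed with other titles, was at 19.8%, so over all GV oocytes the sets overlapped. MII young control 2-1 and MII NMN 2-1, also titled batch 2-n, were all on the long form. The exception in MII, aged control 2-1 at 78.5%, rests on 5 counts, and the long form alone in MII NMN 2 and 2-1 on 1 and 9 counts. This share was computed after the values were seen, short reads assign it indirectly, and it enters the TPM of Zp1 but not its CPM.

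Genes that act with the 4 were taken from lists of known roles and counted by the same rule. Of the E-protein partners of FIGLA (Tcf3, Tcf4 and Tcf12), none of 3 met it in any of the 7 comparisons. Tcf3 was at 5.82 to 12.4 scaled CPM in the means of GV groups and 14.6 to 23.4 in those of MII groups, so it was not low in MII as Figla was. Among 5 oocyte transcription factors found, of which 4 passed the filter, 1 was lower in MII in each condition, a share near the 15.4, 25.9 and 26.8% of all genes. This was Lhx8, a germ-line homeobox factor, in both controls, at 52.4 against 13.5 in young and 45.6 against 4.67 in aged. In NMN it was Nobox, another homeobox factor of the oocyte, at 253 in GV against 56.8 in MII. The means of Nobox in MII controls were 262 and 175 scaled CPM.

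Genes listed under zona protein processing, and under zona cleavage and the block to polyspermy, were counted in the same way. The first list holds Furin, Pcsk5, Pcsk6, Pcsk7, Ern1 and Hspa5, which are not all proteases. Of 6 genes of zona protein processing, 3 were higher in MII young controls and none lower, against 16.6% of all genes higher, with a median log2 ratio of 1.42 against 0.35 for all genes. Furin, a protease of the secretory pathway, was 1 of them, at 2.71 in GV and 44.9 scaled CPM in MII young controls. The others, at lower levels, were Pcsk5, at 0 in GV and 9.90 in MII, and Pcsk7, at 0 and 4.98. Pcsk5 and Pcsk7 reached at most 1.90 and 0.351 scaled CPM in a GV oocyte, so they passed the filter through MII oocytes. The count of 3 of 6 and the median are therefore no support for a rise of the list. In aged controls Furin was at 19.8 and 19.1, and 1 of the 6 genes was higher, against 8.32% of all genes. This was Pcsk5, at 0.438 in GV and 1.99 in MII, so close to the floor. In NMN none was higher, against 3.34% of all genes, and 1 of the 6 was lower, under the 26.8% of all genes. This was Hspa5, a chaperone of the endoplasmic reticulum, at 92.9 in GV and 24.5 in MII. Astl encodes ovastacin, the protease that cleaves ZP2 after fertilisation. In the order young, aged and NMN its means were 74.6, 77.9 and 61.2 scaled CPM in GV and 140, 135 and 53.2 in MII oocytes, so it was not lower in MII controls. Fetub encodes fetuin-B, which inhibits ovastacin, and was at 10.1, 30.1 and 37.1 in GV and 2.40, 2.08 and 0 in MII. Of the 8 genes of zona cleavage and the block to polyspermy, 6 passed the filter, and 0, 3 and 3 were lower in MII young control, aged control and NMN, against 15.4, 25.9 and 26.8% of all genes.

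Izumo1r, the egg receptor for the sperm protein IZUMO1 and also known as Juno, was at 29.3, 146 and 194 scaled CPM in GV groups and 17.9, 14.2 and 10.005 in MII groups. Cd9, a tetraspanin needed for gamete fusion, was at 26.7, 138 and 161 in GV and 50.2, 39.2 and 41.7 in MII. Both were higher in GV aged than in GV young controls by the rule, 2 of the 3 egg surface genes found, against 19.7% of all genes. Of 5 factors secreted by the oocyte, 1 was higher and 1 lower in MII young controls, 1 was lower in aged controls and 2 in NMN. In young controls 16.6% of all genes were higher and 15.4% lower, and 25.9 and 26.8% were lower in the other conditions, so the counts of controls are near or under these shares. Oosp2, 1 of these factors, was at 2087, 1150 and 1382 in GV and 590, 670 and 374 in MII. Of 10 other genes with a ZP domain found, 4 passed the filter, and the highest group mean was 33.7 scaled CPM, of Dmbt1 in GV NMN.

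The genes whose levels ran most like each member over the 16 oocytes were ranked by Spearman rho among 10509 genes. For Zp1 they were Sumo3, Sdf4, Arhgef16, Cyth2 and Rps19, with rho of 0.95 to 0.93. For Zp2 they were Mrpl33, Rps23, Maea, Lyrm2 and Rps27a, at 0.97 to 0.94. For Zp3 they were Sap30bp, Cmss1, Haus8, Flad1 and Bloc1s2, at 0.96. For Figla they were Mrpl52, Dstn, Rpsa, BC049352 and Prm2, at 0.96 to 0.94. Most of these genes were, like the 4, higher in GV than in MII oocytes. Zp3 ranked at place 26 for Zp1 and Zp2 at place 134 for Figla, so the members were not each other's closest genes. Over the 7 GV oocytes alone, between 7 and 15 genes tied at or above the fifth place for each member, so no gene is named from so few points.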

How the data were processed

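RNA of single oocytes was sequenced, and 18 gene tables were deposited, 1 per library. Per the submitters' processing notes, TopHat2 2.1.1, Cufflinks, Trim Galore 0.4.5 and FastQC 0.11.8 were used with mm10 and GRCm38. The tool that made the tables is not given in the sources used here. Per the file headers, each table holds an expected count per gene, not normalised, rounded here to integers. The deposited TPM, per the file headers, are relative to effective length and library and served for levels between genes. The deposited FPKM values were not used. Libraries were made from the lysate over the pelleted nucleus with a TruePrep kit, per the labels' protocols.

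Symbols came from GENCODE vM21. The filter filterByExpr of edgeR 4.0.16 (R 4.3.3) left 12161 genes, and TMM gave the scaling. Comparisons used the log2 ratio of mean scaled CPM after adding 1 CPM. Folds are plain ratios of scaled means. Pooled counts carry exact 95% Poisson intervals. A library under 100000 counts was dropped and an identical pair counted once. Scripts in Python 3.11.15 were tested on simulated data.

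The members and lists were chosen with earlier results of these data known. Named genes were the 4 members, the 5 most similar genes of each by Spearman rho with predicted genes left out, and up to 4 genes per list with at least 10 scaled CPM in a group mean, of which the text names a part. There were 7 comparisons, plus 2 between sets of library titles chosen after the values were seen. MII NMN 2, whose title gives batch 2 alone, was read as a library of other titles. Of its detected genes 29.0% had a fractional count, outside the 11.9 to 14.6% of libraries titled batch 2-n. A planned comparison of the proteins was not made.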

Additional observations from a re-analysis of the deposited data

How the results depend on the processing

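No paired analysis was possible because no result comes from a test, and values within the sets of library titles stand with the results. The log2 ratio of the zona sum kept its sign in 120 of 128 alternatives over 7 comparisons, and in 91 of 91 for the 5 comparisons past the 2-fold rule. Single genes kept it in 255 of 255 alternatives where the rule was met and in 212 of 257 where it was not. The rule asks for groups without overlap, so choosing among their oocytes could hardly turn a sign where it was met. The full counts of kept signs there are therefore no measure of stability. The zona sum moved by more than the spread between oocytes in 5 alternatives, and the cause was not tested. For maturation in young controls it was -2.16, against -2.52 with RLE size factors and -1.41 with the deposited TPM. For maturation in NMN oocytes it was -7.02, against -3.61 with only libraries titled batch 2-n and -9.99 with only other titles, and for NMN in MII oocytes it was -2.81, against -5.70 with only other titles. RLE factors moved the median of all genes in maturation of young controls by -0.24, and library totals moved that of NMN in MII oocytes by -0.31. Keeping the library of 5008 counts gave 0.93 for age in GV oocytes, against 1.52. Leaving out single oocytes gave -2.35 to -2.03, -4.05 to -3.00 and -9.51 to -6.50 for maturation in the young, aged and NMN conditions. It gave 0.90 to 1.95 for age in GV, -0.26 to 0.41 for age in MII, 0.16 to 1.21 for NMN in GV and -5.31 to -2.31 for NMN in MII oocytes. Where it left 1 oocyte in a group, that value has no spread. Levels near 3 counts, such as Figla in MII oocytes, are limited by depth.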
